A study of Mus musculus with 2 samples.

Results

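The genes described here are 10 genes of the ATF4 arm and the XBP1 branch of the unfolded protein response in mouse vascular smooth muscle cells (VSMCs), which form the muscular layer of arteries. They were taken by name from a fixed list, which was chosen with earlier results of these data known. Atf4, Ddit3, Chac1, Trib3, Asns, Sesn2, Psat1, Phgdh and Cebpb stand for the ATF4 arm, and Xbp1 is set against them. All 10 were found among the 11263 gene symbols of the deposited table and all 10 passed a mean of at least 1 FPKM, as 10157 genes did. FPKM counts fragments per transcript length and library size, so that levels may also be compared between genes. Ad-K5 were primary aortic VSMCs infected with an adenovirus that encodes the transcription factor Klf5. Ad-GFP, the control, were primary aortic VSMCs infected with a GFP adenovirus, so both groups carried a virus. The labels name 1 library for each group. They give the strain as C57BL/7 for Ad-K5 and C57BL/6 for Ad-GFP. Their treatment field describes a lentivirus in a different cell line, which is at odds with the titles. A difference of strain and the effect of the virus cannot be told apart in these libraries.

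When unfolded proteins accumulate in the endoplasmic reticulum (ER), the kinase PERK phosphorylates the initiation factor eIF2alpha. Most translation then slows, while the mRNA of the transcription factor ATF4 is translated better. Kinases that sense amino acid shortage, double-stranded RNA or heme shortage act on the same site, so ATF4 also responds to stresses that do not begin in the ER. A separate sensor, IRE1, splices the Xbp1 mRNA so that it encodes an active transcription factor for chaperones and ER-associated degradation (ERAD), and ATF6 induces chaperones and Xbp1 itself. Values per gene do not separate spliced from unspliced Xbp1, and mRNA levels do not report the amount of ATF4 protein.

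ATF4 and C/EBP proteins bind as dimers to a short composite element with the letters TGATGNAA. These letters were searched on both strands of the RefSeq promoters on GRCm38.p6, from 250 bases before to 50 after each gene start. All 10 members matched a promoter, and Psat1 had more than 1. Chac1, Trib3 and Asns held the letters, 3 of the 10 members, against 4.51% of the 27025 genes with a promoter. Counted by promoter, the share was 3.97% of 32851. The sequences around the matches are given because these 3 genes hold the letters near the RefSeq start. Each is on the strand of the gene, and the capitals mark the match. In Chac1 and Trib3 the match is on the opposite strand, so the capitals are its reverse complement.
Chac1 (chr2:119351023-119351082, plus strand): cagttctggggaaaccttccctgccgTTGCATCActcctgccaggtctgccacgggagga
Trib3 (chr2:152344013-152344072, minus strand): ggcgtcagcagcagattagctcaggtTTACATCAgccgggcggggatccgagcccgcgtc
Asns (chr6:7693199-7693258, minus strand): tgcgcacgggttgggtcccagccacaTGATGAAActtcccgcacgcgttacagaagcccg
The match ran from base -193 to -186 in Chac1, from -23 to -16 in Asns and from 15 to 22 in Trib3, counted from the RefSeq start of each gene. The gene coordinates of the deposited table have other starts, by which the match in Asns lies after the start, that in Trib3 before it and that in Chac1 before it. The unfolded protein response element TGACGTGG, found in 0.676% of promoters, and the ER stress response element, CCAAT and CCACG with 9 bases of any kind between them, found in 0.119%, were in no promoter of the 10 members, Xbp1 included, and neither overlapped the printed matches. A match of letters is a description of the sequence. Factor binding was not measured in these libraries.

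The deposited FPKM summed to 300045 in Ad-K5 and 278962 in Ad-GFP. These values carry no read counts, so the counting error of each could not be computed. Klf5, the gene that the virus carries, was at 2.62 FPKM in Ad-K5 and 1.76 FPKM in Ad-GFP. Its log2 ratio of 0.39 was under 2-fold, and 11.9% of measured genes had a ratio at least as large. Whether this value counts the viral transcript is not stated. Of 10 smooth muscle markers 6 were measured, 3 of them with a ratio above 0 and none 2-fold apart. Their ratios ran from -0.58 for Lmod1 to 0.44 for Tagln. Those in the table summed to 261 FPKM in Ad-K5 and 288 FPKM in Ad-GFP, most of which was Acta2. Acta2, the smooth muscle actin, was at 201 FPKM in Ad-K5 and 229 FPKM in Ad-GFP, while Cnn1, calponin, was at 0.860 FPKM in Ad-K5 and 0.782 FPKM in Ad-GFP. Myh11, Myocd and Actg2 were not analysed here.

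In Ad-K5 the ATF4 arm stood mostly above Ad-GFP, and Xbp1 stood below it. Of the 10 members, 8 had a log2 ratio above 0, where 47.9% of the 10157 measured genes did. The ratio is log2(FPKM + 1) in Ad-K5 minus that in Ad-GFP, and "higher" or "lower" is used only for genes at least 2-fold apart on this scale. Chac1 was higher, 1 of 10 members, against 0.975% of all measured genes. None of the 10 was lower, where 0.679% of all measured genes were. With both libraries scaled to the same FPKM sum, Sesn2 passed to -0.013. At 1.5-fold, a threshold added after the values were seen, 5 members passed upward against 4.44% of all genes, and 0 passed downward against 5.48%. The 5 were Chac1, Psat1, Atf4, Phgdh and Asns. The median log2 ratio of the 9 ATF4-arm genes was 0.63, and that of all measured genes was -0.017. With 1 library per group these counts have no replicate error and no test. The members were chosen with earlier results of these data known, so the shares over all genes are a description and not a test.

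**Figure D1:**
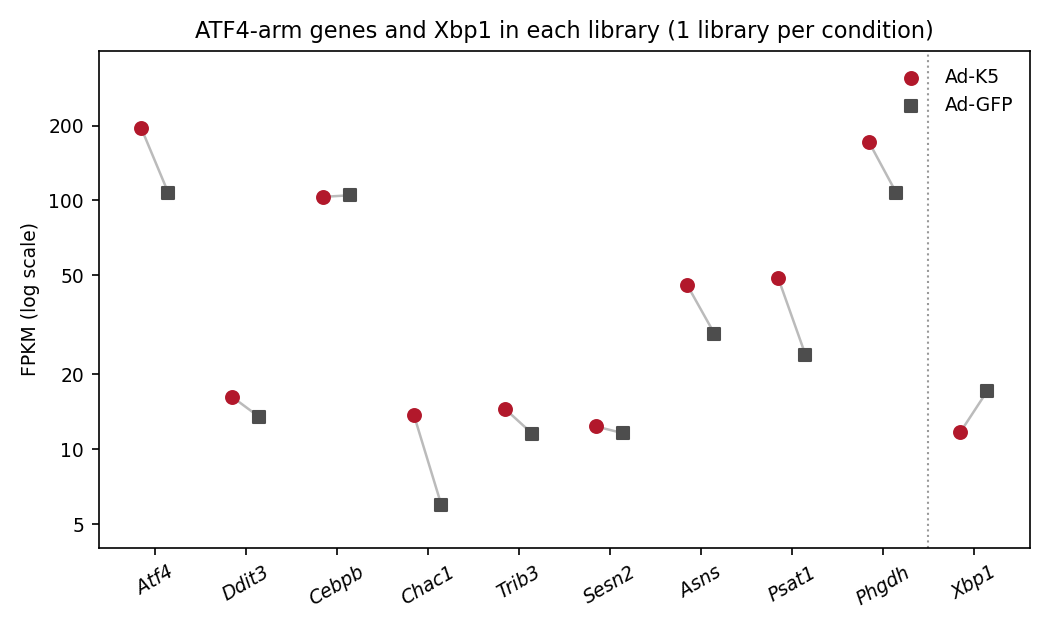
FPKM of the 10 members, on a log scale, in Ad-K5 (circles) and Ad-GFP (squares), 1 library each, with Xbp1 right of the dotted line. The line between the symbols slopes most for Chac1, at 13.7 FPKM in Ad-K5 and 5.97 FPKM in Ad-GFP, is nearly flat for Cebpb and Sesn2, and runs the other way for Xbp1, at 11.7 and 17.2 FPKM.

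Of the transcription factors among the members, Atf4 had the largest ratio, though under 2-fold. Atf4 (ENSMUSG00000042406.7, chr15:80255184-80257540, plus strand, GRCm38) was at 197 FPKM in Ad-K5 and 107 FPKM in Ad-GFP. The log2 ratio was 0.87, or 1.82-fold, and 1.49% of measured genes had a ratio at least as large. Atf4 mRNA was abundant in both libraries, above 97.7% of measured genes in Ad-K5 and above 95.8% in Ad-GFP.

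Ddit3 encodes CHOP, a C/EBP family factor that ATF4 induces and that promotes death under lasting ER stress. Ddit3 (ENSMUSG00000025408.15, chr10:127290774-127296288, plus strand) was at 16.2 FPKM in Ad-K5 and 13.5 FPKM in Ad-GFP, with a log2 ratio of 0.25. This was well under 2-fold, and 20.9% of measured genes had a ratio at least as large. The annotation places a second Ddit3 gene on the same strand and Mars and Gm4189 on the opposite strand within this locus. How the counting assigned reads there is not stated, so the value of Ddit3 is uncertain.

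Cebpb encodes C/EBPbeta, a partner with which ATF4 can dimerise. Cebpb (ENSMUSG00000056501.3, chr2:167688915-167690418, plus strand) was at 103 FPKM in Ad-K5 and 105 FPKM in Ad-GFP, with a log2 ratio of -0.021. Its ratio lay close to the median of all genes, and its level was above 95.1% of measured genes in Ad-K5 and 95.7% in Ad-GFP. Of the ATF4-arm members, Cebpb was the only one with a ratio below 0. Tmem189 overlaps it on the opposite strand.

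The stress effectors of the arm did not move together. Chac1 encodes a gamma-glutamylcyclotransferase that degrades glutathione. Chac1 (ENSMUSG00000027313.3, chr2:119351229-119354381, plus strand) was at 13.7 FPKM in Ad-K5 and 5.97 FPKM in Ad-GFP. The log2 ratio of 1.07, or 2.10-fold, was the largest of the 10, and 0.797% of measured genes had a ratio at least as large. Its rank by level also differed, since it exceeded 62.9% of measured genes in Ad-K5 and 38.5% in Ad-GFP.

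Trib3 encodes a pseudokinase that binds ATF4 and CHOP and dampens their activity. Trib3 (ENSMUSG00000032715.9, chr2:152337422-152344032, minus strand) was at 14.5 FPKM in Ad-K5 and 11.5 FPKM in Ad-GFP, a log2 ratio of 0.31. Sesn2 encodes sestrin 2, a leucine sensor upstream of mTORC1 that also responds to p53. Sesn2 (ENSMUSG00000028893.8, chr4:132492032-132510501, minus strand) was at 12.3 FPKM in Ad-K5 and 11.6 FPKM in Ad-GFP, a log2 ratio of 0.084. Both stayed under 1.5-fold. Ratios at least as large were found in 16.6% of measured genes for Trib3 and in 37.9% for Sesn2. Gm12981 overlaps Sesn2 on the same strand. Trib3 holds TGATGNAA as Chac1 does, yet the ratio of Chac1 was above and that of Trib3 below the median of the arm.

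The 3 members that encode amino acid synthesis enzymes, Phgdh, Psat1 and Asns, each passed 1.5-fold and not 2-fold. Phgdh encodes phosphoglycerate dehydrogenase, the entry enzyme of serine synthesis. Phgdh (ENSMUSG00000053398.11, chr3:98313170-98339990, minus strand) was at 171 FPKM in Ad-K5 and 107 FPKM in Ad-GFP, a log2 ratio of 0.67. Psat1 encodes phosphoserine aminotransferase, the next enzyme of the same route. Psat1 (ENSMUSG00000024640.9, chr19:15904678-15947337, minus strand) was at 48.9 FPKM in Ad-K5 and 24.0 FPKM in Ad-GFP. Its log2 ratio of 0.998 lay just under 2-fold, while the plain FPKM ratio was 2.04. Ratios at least as large were found in 0.994% of measured genes for Psat1 and in 2.94% for Phgdh. The pseudogene Gm3329 overlaps Psat1 on the opposite strand.

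Asns encodes asparagine synthetase, which forms asparagine from aspartate and glutamine. Asns (ENSMUSG00000029752.12, chr6:7675169-7693254, minus strand) was at 45.8 FPKM in Ad-K5 and 29.2 FPKM in Ad-GFP. The log2 ratio was 0.63, or 1.55-fold, and 3.53% of measured genes had a ratio at least as large. The 3 synthesis genes differed from each other in level, Phgdh being the most abundant in both libraries. Psph, the last enzyme of serine synthesis, and Shmt2, which turns serine to glycine in mitochondria, were looked at after these values were seen. Psph was at 15.9 FPKM in Ad-K5 and 11.7 FPKM in Ad-GFP (log2 ratio 0.41), and Shmt2 at 99.8 and 74.6 FPKM (0.42).

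Xbp1 stood on the other side of 0. Xbp1 (ENSMUSG00000020484.18, chr11:5520659-5525893, plus strand) was at 11.7 FPKM in Ad-K5 and 17.2 FPKM in Ad-GFP. The log2 ratio was -0.52, and 7.70% of measured genes had a ratio at least as low. It was not 2-fold apart. The median of the 9 ATF4-arm genes exceeded the ratio of Xbp1 by 1.15 on the log2 scale. Each of the 9 had a ratio above that of Xbp1, the closest being Cebpb. Of all measured genes, 92.3% had a ratio at least as large as that of Xbp1.

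**Figure D2:**
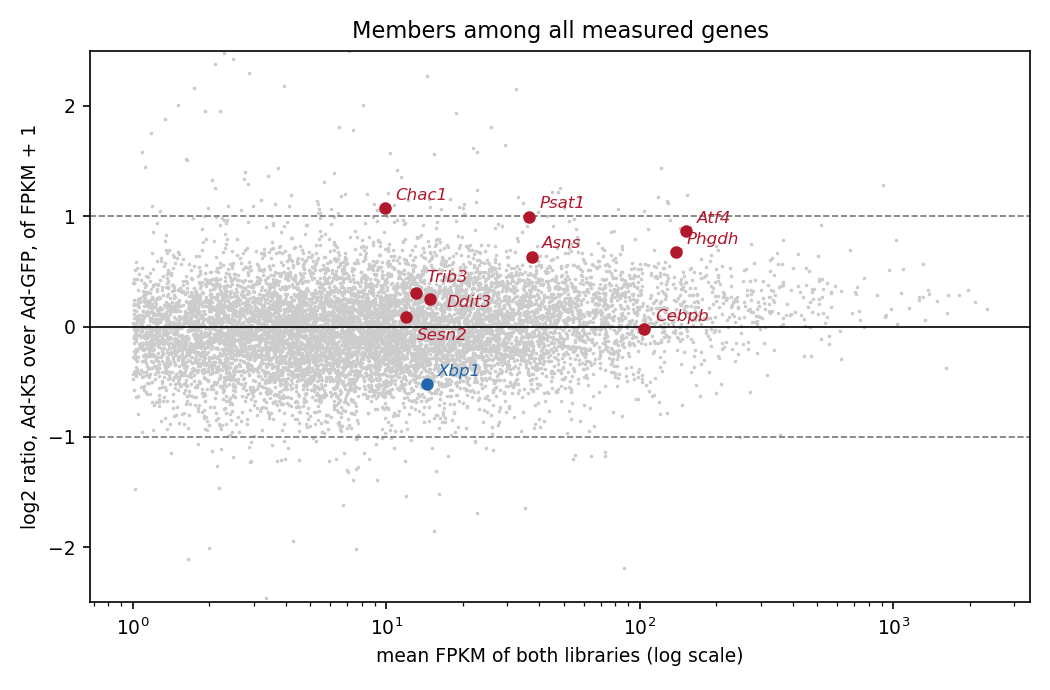
Log2 ratio of Ad-K5 over Ad-GFP on the FPKM + 1 scale against the mean FPKM of both libraries, for all measured genes (grey), the 9 ATF4-arm genes (red) and Xbp1 (blue), with dashed lines at 2-fold. Chac1 lies above the upper line, Psat1 on it, and Xbp1 among the genes below 0, and 7 genes with a ratio beyond 2.5 in either direction are outside the plot.

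The call of Chac1 and of Psat1 rested on the scale. With a pseudocount of 0.1 the log2 ratio of Psat1 was 1.02 and both genes were 2-fold higher, and with a pseudocount of 5 that of Chac1 was 0.77 and neither was. When both libraries were scaled to the same FPKM sum, Chac1 was at 0.98, and with ratios centred on the median of all genes Psat1 was at 1.01.

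The table also holds a mean of log2(FPKM + 1) for each of the groups, in columns that the header numbers 1 and 2 without naming them. These are the authors' means and have no SD or n. Taking each as a mean of 2 values, Ad-K5 could belong to column 1 and Ad-GFP to column 2 in every row, since what is left was below 0 in 0 rows, whereas the opposite assignment left 119 rows below 0. The number of values behind each mean is not stated in the header. For Atf4 the authors' means were 7.62 in column 1 and 7.17 in column 2, a difference of 0.45. For Chac1 they were 3.83 and 3.30, a difference of 0.53, and for Psat1 5.63 and 5.14, a difference of 0.49. For Xbp1 they were 3.95 and 4.25, a difference of -0.30.

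All 9 ATF4-arm genes had a difference above 0 in these means, between 0.049 and 0.53, with a median of 0.31. The median over all measured genes was -0.00039. None of the 10 members was 2-fold apart in them, where of 10145 genes only 16 were higher and 16 lower. The named libraries would be contained in these means, so the direction is not independent of the ratios above. With the named libraries taken out, what is left of the difference had a median of -0.010 over the 9 genes and lay between -0.032 for Trib3 and 0.12 for Cebpb. It was 0.026 for Atf4, -0.010 for Chac1, -0.023 for Psat1, -0.015 for Phgdh, -0.017 for Asns and -0.081 for Xbp1, and Klf5 was at -0.17. Of the 9 genes, 4 were above 0 in it, and its median over all measured genes was 0.016. Under this assumption, the ratios of at least 0.63 in 5 of the arm genes had no counterpart of like size in the remainder. This was not particular to the arm. Over all measured genes the remainder had an SD of 0.23, and the ratio of the named libraries 0.39. The 5 measured mesothelial markers, described below, had a median ratio of 1.80 and a median remainder of -0.054.

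**Figure D3:**
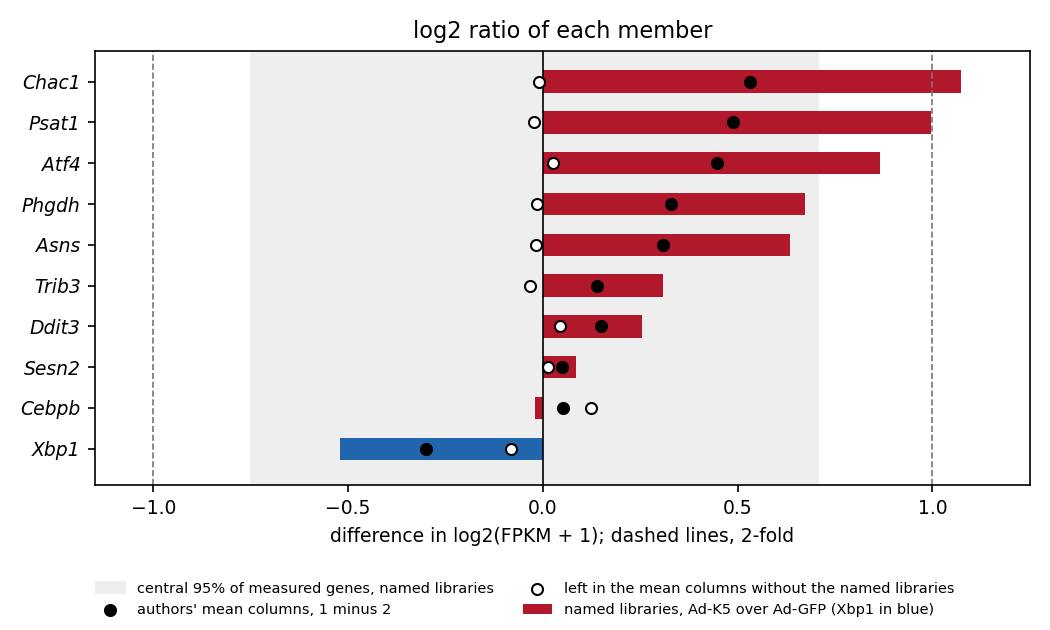
Difference in log2(FPKM + 1) of each member: bars for the named libraries, Ad-K5 over Ad-GFP, filled points for the authors' mean columns, 1 minus 2, and open points for what is left in these columns without the named libraries. The grey band holds the central 95% of all measured genes in the named libraries, from -0.75 to 0.71. Chac1, Psat1 and Atf4 reach beyond the band, while the open points lie between -0.081 and 0.12. The values behind the open points had an SD of 0.23 over all measured genes.

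Level and exon length moved with the ratio across all genes, and their part in the members' ratios was not tested. Of the 10 members, Atf4, Phgdh, Cebpb, Asns and Psat1 were in the highest of 5 equal classes of mean FPKM, whose median log2 ratio was 0.084. Among the 493 genes at 100 FPKM or more the median was 0.17, and 6.49% were at least 1.5-fold up. Across 10130 genes, which are not independent replicates, Spearman's rho between the ratio and exon length was -0.26. In 5 equal classes of exon length, the shortest, up to 2431 bases, had a median ratio of 0.12, and the longest had -0.14. Atf4 (2358 bases), Ddit3 (1713), Chac1 (1637), Trib3 (2125) and Cebpb (1504) were in the shortest class. In that class 9.27% of genes were at least 1.5-fold up and 2.56% at least 2-fold, against 4.44% and 0.975% of all measured genes. Psat1 (4254 bases) was in the middle class, whose median was -0.050. Xbp1 (3248 bases) shared its class with Asns, Phgdh and Sesn2, where the median was 0.025. Above the median of its own length class, the ratio stood by 0.95 in Chac1, 1.05 in Psat1, 0.74 in Atf4, 0.65 in Phgdh and 0.61 in Asns. The distance was 0.19 in Trib3, 0.13 in Ddit3 and 0.060 in Sesn2. In Cebpb it was -0.14 and in Xbp1 -0.55.

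Markers of another cell type also moved between the libraries. Of the 8 mesothelial markers listed 5 were measured, and 4 of the 5 were higher in Ad-K5, against 0.975% of all measured genes. The summed level of these markers was 127 FPKM in Ad-K5 and 24.0 FPKM in Ad-GFP. Msln, mesothelin, was the highest of them, at 55.9 FPKM in Ad-K5 and 4.66 FPKM in Ad-GFP. Krt18, the remaining one, was at 2.84 FPKM in Ad-K5 and 2.44 FPKM in Ad-GFP. The listed markers Wt1, Lrrn4 and Krt8 were not analysed here. In the remainder of the authors' means the 4 higher markers lay between -0.11 for Msln and 0.054 for Krt19. Of 8 fibroblast markers 3 were measured, and their sum was 508 FPKM in Ad-K5 and 608 FPKM in Ad-GFP, with Pdgfra lower at 4.62 and 13.7 FPKM. Of the endothelial markers 2 of 8 were measured, with a summed level of 5.13 FPKM in Ad-K5 and 5.44 FPKM in Ad-GFP. Of 8 leukocyte markers 1 was measured, Cd14, at 9.31 FPKM in Ad-K5 and 13.5 FPKM in Ad-GFP. Cd68, which did not pass a mean of 1 FPKM, ran the other way, at 0.938 FPKM in Ad-K5 and 0.229 FPKM in Ad-GFP. Pecam1, Cdh5 and Ptprc, which define endothelium and leukocytes, were not analysed here. Whether cells of these types were present or the infected cells expressed the markers was not tested. The part of other cells in the ratios of the members was not tested either. In bulk RNA, fewer cells of a type and less RNA per cell cannot be told apart.

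The genes around the members were taken from lists of the pathway, written by known role but with earlier results of these data known. Over all measured genes 47.9% had a ratio above 0, 0.975% were higher and 0.679% were lower. The share above 0 was 61.3% in the highest level class and 75.9% among genes at 100 FPKM or more. In the shortest length class it was 65.2%. The first list holds the machinery that controls eIF2. Of 18 measured kinases, phosphatase subunits and eIF2 or eIF2B subunits, 1 was higher, 0 were lower and 17 were under 2-fold, with a median log2 ratio of 0.13. Eif2s2, the beta subunit of eIF2, was the higher one, at 20.7 FPKM in Ad-K5 and 8.73 FPKM in Ad-GFP (log2 ratio 1.15). Ppp1r15a, or GADD34, the stress-induced subunit that brings phosphatase to eIF2alpha, was at 14.7 and 10.5 FPKM (0.45), and Eif2b1 at 32.0 and 22.3 FPKM (0.50). In the remainder of the authors' means Ppp1r15a was at -0.62 and Eif2s2 at 0.14. The eIF2alpha kinases, chosen after their values were seen, had ratios between -0.20 and 0.011. Eif2ak3, the gene of PERK, was at 3.77 FPKM in Ad-K5 and 4.49 FPKM in Ad-GFP (-0.20), and the amino acid sensor Eif2ak4, GCN2, at 3.49 and 3.57 FPKM (-0.025).

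Other regulators induced by ATF4 or paired with it had a median of 0.26 in 13 measured genes, 11 of them above 0 and none 2-fold apart. In the remainder of the authors' means the median of this list was -0.026. Eif4ebp1, the 4E-BP1 repressor of cap-dependent translation, was at 37.7 FPKM in Ad-K5 and 19.6 FPKM in Ad-GFP (log2 ratio 0.91). Atf3, a stress-induced bZIP factor, was at 5.25 FPKM in Ad-K5 and 2.45 FPKM in Ad-GFP (0.86), and Nfe2l2, the gene of NRF2, had a ratio of 0.68. Ddit4, an inhibitor of mTORC1 that ATF4 and hypoxia induce, ran the other way, at 30.6 FPKM in Ad-K5 and 41.6 FPKM in Ad-GFP (-0.43). It was named after its value was seen.

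The amino acid transporters that ATF4 induces had a median of 0.43, with 6 of 8 measured genes above 0 and none 2-fold apart. Their median in the remainder of the authors' means was -0.046. Slc6a9, a glycine transporter, was at 10.1 FPKM in Ad-K5 and 5.75 FPKM in Ad-GFP (log2 ratio 0.72). Slc1a4, which carries neutral amino acids, was at 6.42 and 3.73 FPKM (0.65), and Slc7a5, the LAT1 transporter of large neutral amino acids, at 48.6 and 32.7 FPKM (0.56). The list of other amino acid and folate enzymes that ATF4 induces also holds Gpx4, a glutathione peroxidase. Of its 13 measured genes 10 were above 0 and none was 2-fold apart. The median of 0.27 was the ratio of Gpx4. Mthfd2, a mitochondrial folate enzyme, was at 19.9 FPKM in Ad-K5 and 11.5 FPKM in Ad-GFP (0.74), Bcat1 had a ratio of 0.66 and Got1 of 0.48. Of the 20 cytosolic aminoacyl-tRNA synthetases, which load tRNAs with amino acids, 18 were above 0, where 47.9% of all measured genes were. Their median was 0.13, and Gars had the largest ratio, 0.51. In the remainder of the authors' means the median was -0.048 for the enzyme list and 0.00051 for the synthetases.

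For the branches of the response that do not run through ATF4, the IRE1 and ATF6 list had 10 measured genes. Their median was -0.15, with 3 above 0 and none 2-fold apart. Besides sensors and proteases, this list holds Creb3, Creb3l1, Creb3l2, Rtcb and Traf2. Creb3l2, an ER-bound bZIP factor, was at 13.0 FPKM in Ad-K5 and 18.8 FPKM in Ad-GFP (log2 ratio -0.50). Mbtps1, the site-1 protease that cuts ATF6, was at 26.2 and 35.4 FPKM (-0.42), and Ern1, the gene of IRE1 itself, at 3.79 and 5.19 FPKM (-0.37). The other sensor and protease genes, named after their values were seen, were near 0. Atf6 had a ratio of 0.0028, Atf6b of -0.026 and Mbtps2 of 0.076.

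The 19 measured ER chaperones and foldases had a median of 0.079, and none was 2-fold apart. Hspa5, the gene of the chaperone BiP, was at 58.5 FPKM in Ad-K5 and 73.8 FPKM in Ad-GFP (log2 ratio -0.33). Manf, a secreted ER stress protein, was at 36.8 and 22.5 FPKM (0.69), and Dnajb9, a co-chaperone induced by XBP1, at 2.78 and 2.06 FPKM (0.30). In the remainder of the authors' means Manf was at -0.44. The 24 measured ERAD and translocation genes had a median of 0.10, with 14 above 0 and none 2-fold apart. Within that list Sec61b, a subunit of the translocon, had a ratio of 0.55, while the signal peptidase subunits Spcs3 and Spcs2 had ratios of 0.52 and -0.52. No difference between these lists was tested.

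**Figure D4:**
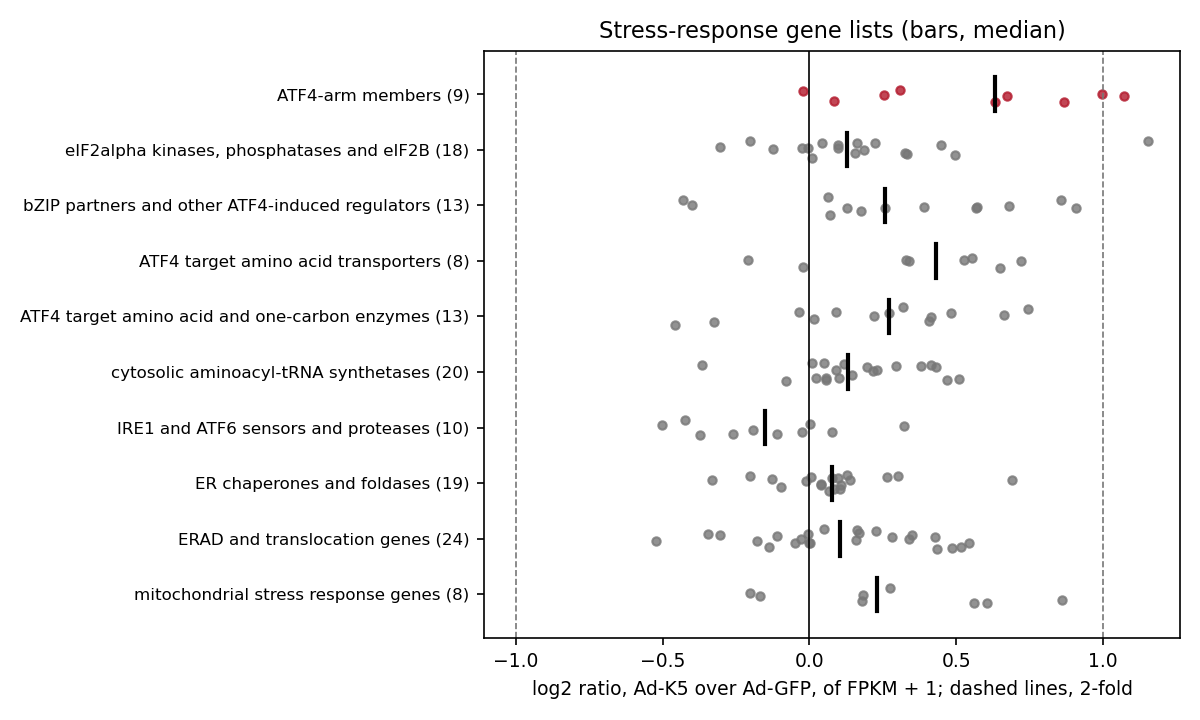
Log2 ratio of Ad-K5 over Ad-GFP on the FPKM + 1 scale for each measured gene of the ATF4-arm members (red) and 9 pathway lists (grey), with black bars at the medians, the number of measured genes in brackets and dashed lines at 2-fold. The medians run between -0.15 for the IRE1 and ATF6 list and 0.63 for the ATF4-arm members, and Chac1 and Eif2s2 are the only points beyond 2-fold.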

How the data were processed

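The authors deposited FPKM for 11275 protein-coding gene IDs in the Ad-K5 and Ad-GFP libraries. The deposited table also holds the authors' group means, on the log2(FPKM + 1) scale, and their fold changes, p-values and q-values, which were not used. HISAT2 2.0.5, STAR 2.5.2b, StringTie, cutadapt and the build mm8 appear in the submitters' processing notes without their roles, whereas the study's methods name HTSeq and the human genome. Of the gene IDs, 11255 were in GENCODE vM21 (GRCm38), and 10291 had the same coordinates there.

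FPKM of rows that share a symbol were summed, 1 FPKM was added, and the log2 ratio of Ad-K5 over Ad-GFP was taken for genes whose mean was 1 FPKM or more. This understates the change of genes at low levels. Genes were counted at 2-fold. The ratio scripts and the motif search were tested on simulated data. With 1 library per group no statistical test was run. The members and lists were chosen with earlier results of these data known. Genes named from a list were its 3 largest ratios and any gene 2-fold apart, unless stated. Sequences are from RefSeq on GRCm38.p6. Alternatives were 2 other pseudocounts (0.1 and 5), 2 filters (none and 5 FPKM), 2 scalings, the row with the highest mean per symbol and the authors' means. Python 3.11.15, numpy 2.4.6, pandas 2.3.3 and matplotlib 3.10.9 were used.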

Additional observations from a re-analysis of the deposited data

How the results depend on the processing

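Of the 10 members, 2 were at least 2-fold higher in Ad-K5 with a pseudocount of 0.1, where 159 of 10157 genes were. With ratios centred on the median 2 were, where 107 of 10157 genes were. The number was 0 with a pseudocount of 5, where 33 of 10157 genes were higher. With both libraries scaled to the same FPKM sum it was 0, where 77 of 10159 genes were. In the authors' mean columns it was 0, where 16 of 10145 genes were. In what is left of them without the named libraries it was 0, where 28 of 10145 were. At 1.5-fold it was 5, where 451 of 10157 genes were. The remainder and 1.5-fold were added with the data in view. The median of the ATF4-arm genes minus Xbp1 was 0.98 with a pseudocount of 5, 0.61 in the authors' mean columns and 0.071 in what is left of them, where the ATF4-arm median was -0.010 and Chac1 was at -0.010. With the other pseudocounts, filters, scalings and the row with the highest mean per symbol, the ATF4-arm median lay between 0.53 and 0.65 and the ratio of Xbp1 between -0.62 and -0.41. Sesn2 lay between -0.013 and 0.10, passing 0 when the libraries were scaled to the same sum. The number of all genes 2-fold higher ran from 33 to 159 and the number 2-fold lower from 19 to 189 over the same settings. At 1.5-fold, 451 genes were higher and 557 lower. Leaving out a library was not run, since each group has 1. No read counts were used, so counting error could not be computed. No paired analysis was possible because each group has 1 labelled library.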

Other observations

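Mitochondrial stress also feeds into ATF4. Of 8 measured mitochondrial chaperones and proteases, 6 had a log2 ratio above 0, where 47.9% of all measured genes did. Their median was 0.23, and none was 2-fold apart. Hspe1, the co-chaperonin of the mitochondrial matrix, was at 99.8 FPKM in Ad-K5 and 54.5 FPKM in Ad-GFP (log2 ratio 0.86), and its partner Hspd1 was at 95.0 FPKM in Ad-K5 and 62.1 FPKM in Ad-GFP (0.61). The protease subunit Clpp had a ratio of 0.56, while Lonp1, another matrix protease, named after its value was seen, was at -0.20. In what is left of the authors' means without the named libraries, Hspe1 was at -0.24 and Hspd1 at -0.10.

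The letters TGATGNAA were in the promoter of 203 of the 7971 measured genes that matched a RefSeq promoter by symbol, or 2.55%. The median log2 ratio of these 203 genes was -0.011, and that of the other matched genes was -0.019. Of the 203 genes, 3 (1.48%) were higher by 2-fold or more in Ad-K5 and 1 (0.493%) was lower by as much. Over all measured genes these shares were 0.975% and 0.679%. Among the aminoacyl-tRNA synthetases, 5 of the 12 that matched held the letters, namely Aars, Gars, Iars, Tars and Yars, with a median ratio of 0.23. Among the 15 matched ER chaperones and the 7 matched genes of the IRE1 and ATF6 list, 0 held them. These are counts of letters within the window searched, and no enrichment was tested.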
